A study of Mus musculus with 15 samples.

Results

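The 9 genes described here belong to the amino acid response driven by the transcription factor ATF4 and to the serine synthesis pathway that it feeds: Atf4, Atf5, Ddit3, Asns, Trib3, Adm2, Phgdh, Psat1 and Psph. Each was read in mouse liver at the probe set annotated to its symbol alone, taking the brightest such probe set on average where several exist. All 9 were found among the 18193 genes that the arrays name. The arrays were Affymetrix GeneChip Mouse Genome 430 2.0 oligonucleotide arrays, each hybridised with RNA from a pool of whole livers of adult male mice, with 3 pools in each of 5 groups. The study asked whether expression patterns set by early nutrition in males return in their sons.

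IUGR F1 pools (4 to 6) came from males whose calories were cut by 50% while they were in utero, and ON F1 pools (7 to 9) from males overfed during lactation. IUGR F2 (10 to 12) and ON F2 (13 to 15) pools came from adult male offspring of those males, who were not labelled with any feeding treatment of their own. Control pools (1 to 3) came from control males of the first and second generation together, so that neither generation has a control group of its own. The titles carry a 3 beside the word pool, taken here to be the livers in each. The sources used here give neither strain nor age in weeks, and do not tell whether pools within a group were drawn from different litters. The p-values therefore measure the spread between these pools, which may in part be technical.

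ATF4 is the effector of the integrated stress response. When amino acids run short, the kinase GCN2 senses uncharged tRNA and phosphorylates the translation factor eIF2 alpha, and under stress in the endoplasmic reticulum (ER) the kinase PERK does the same. General translation then falls while the Atf4 message is translated more, so that the level of Atf4 mRNA is not a measure of ATF4 protein. ATF4 pairs with C/EBP proteins at short composite elements and induces genes of amino acid synthesis, uptake and tRNA charging. Asns, which makes asparagine, is the classic target, and Phgdh, Psat1 and Psph make serine from a glycolytic intermediate.

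The composite element was searched for as TTNCATCA, or TGATGNAA when it is read on the other strand, in RefSeq windows reaching from 250 bases before a gene's start to 50 bases after it (build GRCm38.p6). Of 27025 genes with such a window 4.51% held the letters, and of the 9 genes described here 2 did, Asns and Trib3. Among other known ATF4 targets 4 of 15 with a window held them, and among cytosolic aminoacyl-tRNA synthetases 5 of 12. In a list of ER chaperones and other ER stress genes it was 0 of 17. The sequences below are shown because they set the Asns element beside those of other listed genes that hold it, and the capitals mark the matched letters. The Asns stretch is the 100 bases before its start, at chr6:7693210-7693309 on the minus strand, with the element 23 to 16 bases before the start. The Trib3 site lies at chr2:152344028-152344057 on the minus strand, that of Chac1 at chr2:119351038-119351067 on the plus strand, that of Fgf21 at chr7:45615611-45615640 on the minus strand and that of Gars at chr6:55037960-55037989 on the plus strand.
Asns: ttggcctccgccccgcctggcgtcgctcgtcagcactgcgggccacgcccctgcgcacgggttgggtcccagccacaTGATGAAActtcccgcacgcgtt
Trib3: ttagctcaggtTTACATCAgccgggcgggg
Chac1: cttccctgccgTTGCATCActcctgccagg
Fgf21: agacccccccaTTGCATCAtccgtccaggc
Gars: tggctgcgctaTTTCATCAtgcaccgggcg
A match describes these letters only and is not a site shown to be bound.

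Asns, the asparagine synthetase gene, was the 1 gene of the 9 that differed between groups by the test. Its level was 3.84-fold higher in ON F2 than in ON F1 livers, with control livers between. Levels below are log2 RMA (robust multi-array average) values, differences are given on the same scale ± the SE estimated by limma, and a gene is called where the limma p adjusted over all 18193 genes is below 0.05. Asns stood at 7.70, 7.48 and 6.98 in the ON F2 pools, at 5.18, 5.77 and 5.38 in the ON F1 pools and at 6.44, 6.28 and 6.76 in the control pools. Every ON F2 pool lay above every control pool, and every ON F1 pool below. ON F2 exceeded ON F1 by 1.94 ± 0.34 (fold 95% interval 2.34 to 6.32), with a limma adjusted p of 0.0211. This comparison called 261 of 18193 genes (1.43%), of which 88 (0.484%) were higher in ON F2. As these are whole-liver pools, a change in the number of cells of a type and a change in RNA per cell cannot be told apart.

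**Figure D1:**
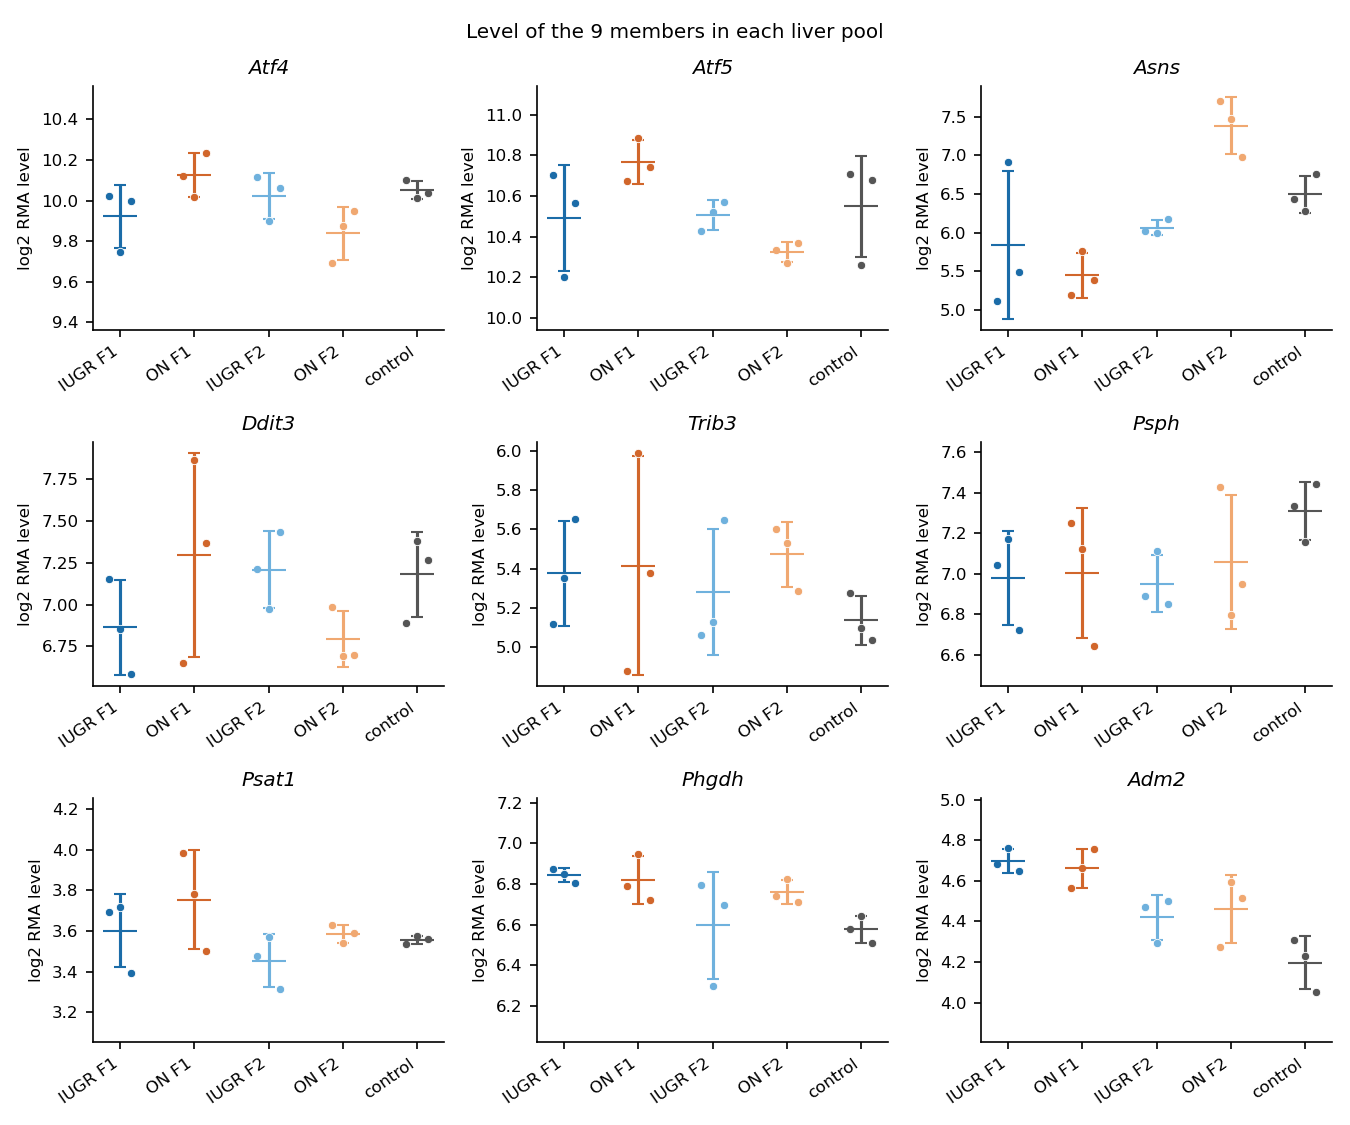
Level of each of the 9 genes in the 15 liver pools on the log2 RMA scale, with a panel per gene and a separate vertical scale in each; points are pools, and bars give the mean and SD of the 3 pools. Asns spans 2.60 log2 units, with ON F2 pools at 6.98 to 7.70, ON F1 pools at 5.18 to 5.77 and control pools at 6.28 to 6.76, and each other gene spans 0.54 to 1.28.

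Against control, the Asns differences did not pass the test in any of the 4 groups. In ON F1 livers the difference was -1.05 ± 0.34, that is 2.07-fold lower (limma adjusted p = 0.204), and in ON F2 livers it was 0.89 ± 0.34, or 1.85-fold higher (adjusted p = 0.239). IUGR F2 pools stood at 6.01, 6.00 and 6.18, all below the control pools, with a difference of -0.43 ± 0.34 (limma adjusted p = 0.840). IUGR F1 pools stood at 5.11, 6.92 and 5.49. Pools 4 and 6 lay below all control pools and pool 5 above them, 1.62 above the mean of the other 2 IUGR F1 pools (pool 4 differed from its others by -1.10), and the group difference was -0.66 ± 0.34 (limma adjusted p = 0.624). The 4 comparisons share the same 3 control pools.

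The remaining comparisons of Asns did not pass the test either. ON F2 and IUGR F2, the sons of the 2 kinds of treated males, differed by 1.32 ± 0.34 with no overlap of pools (limma adjusted p = 0.241), in a comparison added after the values were seen. IUGR F2 exceeded IUGR F1 by 0.22 ± 0.34 (limma adjusted p = 0.843), with overlap. The change between generations in the IUGR lineage minus that in the ON lineage was -1.72 ± 0.48 (limma adjusted p = 0.472). An F test over the 5 groups gave an adjusted p of 0.0758 for Asns in limma, rank 110 of 18193.

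A second Asns probe set, dimmer on the array at a mean of 4.59 and of a type that can cross-hybridise, gave a like order of pools. It read 6.65, 6.48 and 5.83 in ON F2, 3.06, 3.92 and 3.20 in ON F1, and 4.90, 4.67 and 5.16 in control pools. Its ON F2 to ON F1 difference was 2.93 ± 0.42, with a limma adjusted p of 0.0131 over 34945 probe sets tested one by one. Over the 15 pools the 2 probe sets correlated at Pearson's r = 0.992 and Spearman's rho = 0.975, each with an adjusted permutation p of 6e-05 over 6 such pairs. Pearson's r was 0.985 without the 2 pools farthest from the median.

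Markers of other cells were read in the same pools as Asns. Markers of the exocrine pancreas, a tissue known for high Asns expression, had a median level of 9.03 in ON F2 pool 13 and of 4.44 to 4.82 in the other 14 pools (15 of 22 listed markers measured). Their summed linear level was 1533 to 8389 in ON F2, 1468 to 1712 in ON F1 and 1430 to 1500 in control pools. It was 1553 to 1949 in IUGR F1 and 1554 to 1785 in IUGR F2. Asns was also high in ON F2 pools 14 and 15, where the marker median was 4.69 and 4.64. The difference was 1.78 without pool 13, where the call was lost (limma adjusted p = 0.0593), and 1.73 with the marker median as a covariate (adjusted p = 0.0647). Kupffer cell markers (12 of 12 measured) summed to 2072 to 2771 in ON F2, 1696 to 1968 in ON F1 and 1638 to 2499 in control pools. They summed to 1388 to 1455 in IUGR F1 and 1370 to 2168 in IUGR F2. The sum was 1388 in IUGR F1 pool 5, where Asns stood at 6.92. It was 1455 and 1401 in IUGR F1 pools 4 and 6, where Asns stood at 5.11 and 5.49. In ON F2 pool 13 it was 2771, with Asns at 7.70, and in control pool 3 it was 2499, with Asns at 6.76. The part of Kupffer cells in the result was not tested.

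The sources used here do not state the hour of sampling, and Dbp, a clock gene whose liver level swings daily, varied between pools. It stood at 9.84, 10.71 and 6.54 in the ON F2 pools, at 5.40, 5.34 and 6.23 in ON F1 and at 5.88, 10.07 and 6.89 in control. With Dbp as a covariate the Asns difference between ON F2 and ON F1 was 1.50 ± 0.37, and the call was lost (limma adjusted p = 0.197). Asns and Dbp were both high in ON F2 pools 13 and 14 and in IUGR F1 pool 5 (Dbp 9.77, Asns 6.92). Both were low in the ON F1 pools and in IUGR F1 pool 4 (Dbp 5.30, Asns 5.11). Asns and Dbp parted in ON F2 pool 15, with Asns at 6.98, in IUGR F1 pool 6, with Dbp at 9.08 and Asns at 5.49, and in control pool 2, with Dbp at 10.07 and Asns at 6.28. Without ON F1 pool 7 the difference was 1.81 (limma adjusted p = 0.0757), and without ON F2 pool 14 it was 1.90 (adjusted p = 0.0824). Without IUGR F1 pool 5 and ON F2 pool 13 together, a setting chosen after seeing the data, it was 1.78 ± 0.20 and called (limma adjusted p = 0.00939). Without pool 13 alone it was 1.78 ± 0.37 and not called. Pool 5 is in neither group compared, and leaving it out changes only the shared estimate of the spread. The sign was positive in every setting run. In many of them it could not change. Leaving out pools of other groups, the dim gene filter and the trend and robust moderation all kept the same group means and a difference of 1.94.

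**Figure D2:**
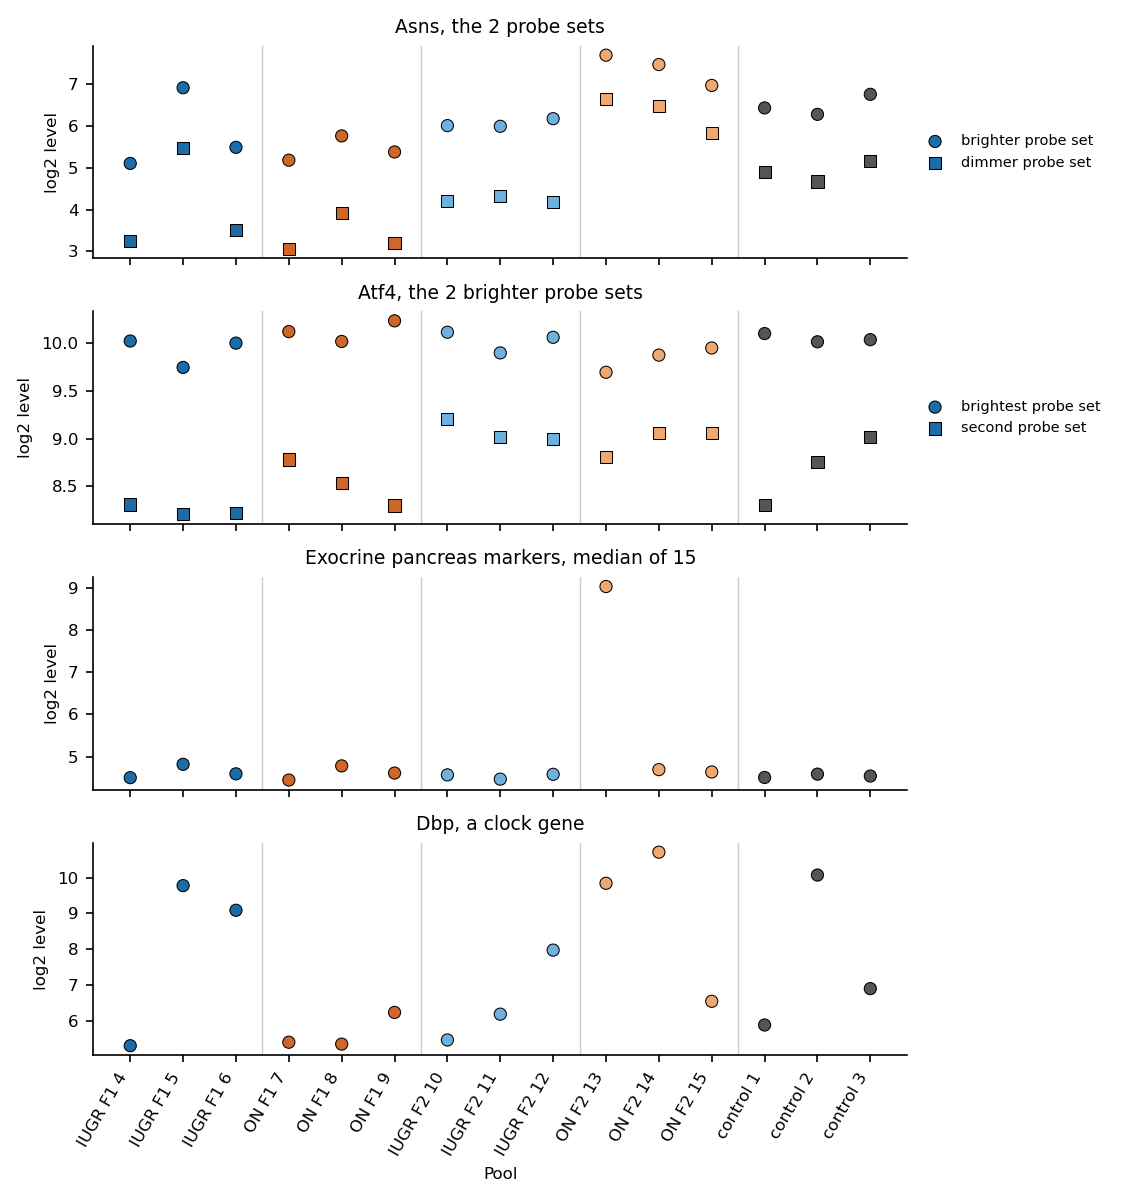
Log2 levels in each of the 15 pools: both Asns probe sets, the 2 brighter Atf4 probe sets, the median of 15 exocrine pancreas markers and the clock gene Dbp. Both Asns probe sets are high in all 3 ON F2 pools and in IUGR F1 pool 5, the pancreas median is high (9.03) in ON F2 pool 13, and Dbp is above 9 in IUGR F1 pools 5 and 6, ON F2 pools 13 and 14 and control pool 2.

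The other 8 genes gave 0 calls in any comparison by limma. In IUGR F1 against control, 0 of 18193 genes were called (0%), and 2 of the 9 genes had an unadjusted p below 0.05, against 8.43% of all genes. In ON F1 against control, 4 genes were called (0.022%), none of them among the 9, of which 3 had an unadjusted p below 0.05 (all genes 14%). IUGR F2 against control called 0 genes (0%), with 1 of the 9 below an unadjusted 0.05 (all genes 7.05%), and ON F2 against control called 0 (0%), with 3 of the 9 (all genes 15.1%). IUGR F2 against IUGR F1 called 2 genes (0.011%), 0 of the 9, of which 2 were below an unadjusted 0.05 (all genes 11.4%). In ON F2 against ON F1, 3 of the 9 were below an unadjusted 0.05 (all genes 19.3%). ON F2 against IUGR F2 called 1 gene (0.0055%), 0 of the 9, of which 1 was below an unadjusted 0.05 (all genes 10.1%). The lineage by generation interaction called 2 genes (0.011%), 0 of the 9, and the F test over 5 groups called 34 (0.187%), 0 of the 9. Unadjusted p below 0.05 was met there by 4 and 2 of the 9, against 7.71% and 18% of all genes.

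Groups whose pools do not overlap are common on these arrays, so their number is read against that of all genes. Separation held for 2 of the 9 genes in IUGR F1 against control (all genes 14.5%), 3 for ON F1 (16.4%), 2 for IUGR F2 (13.4%) and 4 for ON F2 (21.0%). It held for 2 in IUGR F2 against IUGR F1 (all genes 19.2%), 3 in ON F2 against ON F1 (21.4%) and 2 in ON F2 against IUGR F2 (17.1%). The genes concerned are named with their values below.

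**Figure D3:**
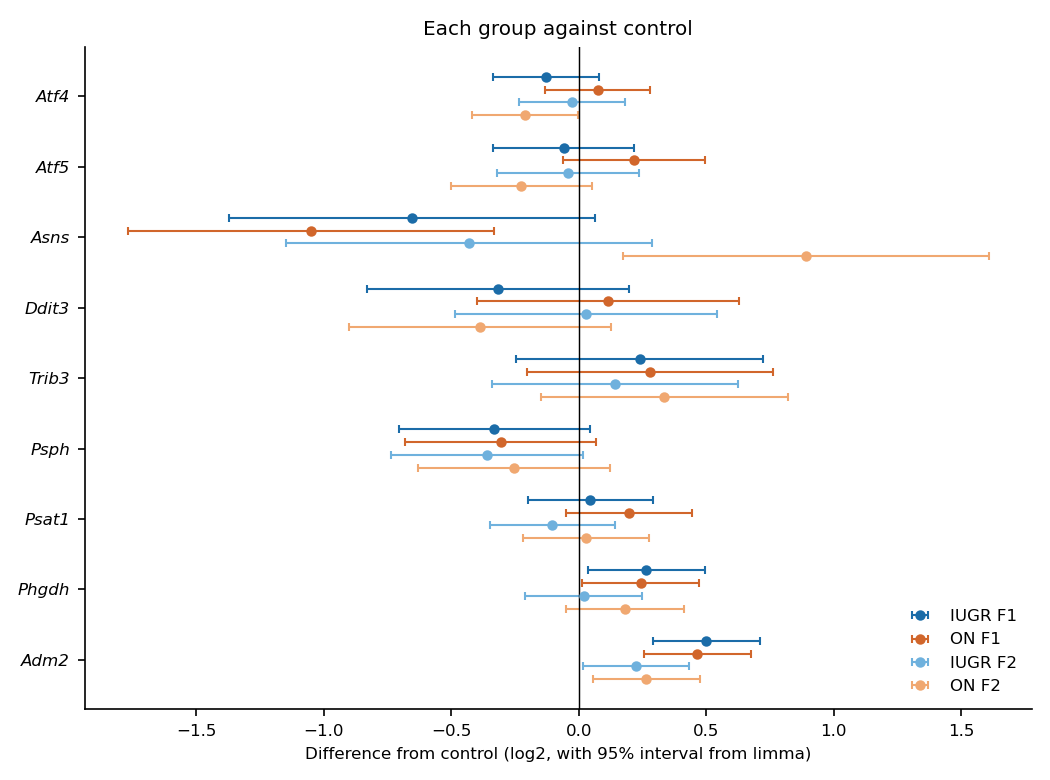
Difference of each group from control for the 9 genes on the log2 scale, with 95% intervals from limma; each point is a group. The Asns points run from -1.05 in ON F1 to 0.89 in ON F2, Adm2 is positive in all 4 groups (0.22 to 0.50), and Psph is negative in all 4 (-0.36 to -0.25).

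Of the transcription factors, Atf4 was abundant and varied by 0.54 log2 units over all pools. It stood at 9.70, 9.87 and 9.95 in ON F2, at 10.12, 10.02 and 10.23 in ON F1 and at 10.10, 10.01 and 10.04 in control pools. The ON F2 pools were the lower ones against both, without overlap, while Asns was higher there. The differences were -0.28 ± 0.10 against ON F1 (limma adjusted p = 0.134) and -0.21 ± 0.10 against control (adjusted p = 0.322). Group means were 9.92 ± 0.15 in IUGR F1 and 10.02 ± 0.11 in IUGR F2 (SD, n = 3 pools each), with differences from control of -0.13 and -0.026. A second Atf4 probe set, at a mean of 8.70 and of a type that can cross-hybridise, went the other way. It gave 0.44 ± 0.16 for ON F2 against ON F1 and 0.28 ± 0.16 for ON F2 against control (limma adjusted p = 0.170 and 0.446 over all probe sets). Against control it gave -0.45 ± 0.16 in IUGR F1 and 0.38 ± 0.16 in IUGR F2 (limma adjusted p = 0.523 and 0.712). IUGR F2 exceeded IUGR F1 there by 0.83 ± 0.16 without overlap (limma adjusted p = 0.127), beside 0.10 ± 0.10 at the brightest probe set. The 2 Atf4 probe sets correlated at r = -0.067 and rho = -0.05 over the 15 pools (adjusted permutation p = 0.812 and 0.863; r = -0.38 without the 2 farthest pools), so the direction of Atf4 rests on the probe set.

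Atf5, a relative of Atf4 that is likewise controlled in translation and is abundant in liver, had 1 probe set. Its levels were 10.34, 10.27 and 10.37 in ON F2, 10.67, 10.88 and 10.74 in ON F1 and 10.71, 10.26 and 10.68 in control pools. The ON F2 pools lay below all ON F1 pools, by -0.44 ± 0.13 (limma adjusted p = 0.0881), and overlapped the control range. They also lay below all IUGR F2 pools (10.43, 10.52 and 10.57), by -0.18 ± 0.13 (limma adjusted p = 0.683). The mean was 10.49 ± 0.26 in IUGR F1 and 10.55 ± 0.25 in control (SD, n = 3 pools each), with overlap.

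Ddit3 encodes CHOP, the factor linked to cell death under prolonged ER stress. It ranged over 1.28 log2 units, with the widest spread in ON F1 (6.65, 7.87 and 7.37), against 6.98, 6.69 and 6.70 in ON F2 and 6.89, 7.38 and 7.27 in control. At this brighter probe set all comparisons overlapped, and the largest difference from control was -0.39 ± 0.24 in ON F2 (limma adjusted p = 0.465). The 2 Ddit3 probe sets disagreed in sign in some comparisons, with -0.50 and 0.57 for ON F2 against ON F1 and 0.11 and -0.62 for ON F1 against control. For IUGR F2 against IUGR F1 both were positive, at 0.34 and 0.69, the latter without overlap (limma adjusted p = 0.632 and 0.197 over all probe sets). They correlated at r = 0.16 and rho = 0.36 (adjusted permutation p = 0.812 and 0.276, and r = 0.53 without the 2 farthest pools).

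Among the further targets of the response, Trib3, a pseudokinase that binds Akt and ATF4, also carries the element (above). It read 5.60, 5.53 and 5.28 in ON F2, 4.88, 5.99 and 5.38 in ON F1, and 5.28, 5.10 and 5.04 in control pools. ON F2 lay above control without overlap, by 0.34 ± 0.23 (limma adjusted p = 0.506), but ON F1 pools spread on both sides of ON F2, and that difference was 0.056 ± 0.23 (adjusted p = 0.917). Both Trib3 probe sets moved together over pools (r = 0.80, rho = 0.83, adjusted permutation p = 0.00099 and 0.00093; r = 0.84 without the 2 farthest pools). The brighter one, read here, is of a type that can cross-hybridise.

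Adm2, which encodes the secreted peptide adrenomedullin 2, was dim, with a mean of 4.49 over all pools. It stood at 4.68, 4.76 and 4.65 in IUGR F1, at 4.57, 4.66 and 4.76 in ON F1 and at 4.31, 4.23 and 4.05 in control pools. All pools of both first-generation groups lay above all control pools. The differences were 0.50 ± 0.10 for IUGR F1, which ranked 6 of 18193 genes by p in that comparison (limma adjusted p = 0.346), and 0.47 ± 0.10 for ON F1, rank 49 (adjusted p = 0.0994). The second generation was nearer to control, at 0.22 ± 0.10 in IUGR F2 and 0.26 ± 0.10 in ON F2, with overlap in both, and IUGR F2 lay below IUGR F1 without overlap, by -0.28 ± 0.10 (limma adjusted p = 0.330). As the gene is dim and has a single probe set, its levels lie where RMA compresses differences.

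Of the 3 enzymes of serine synthesis, Phgdh, which commits the carbon to the pathway, resembled Adm2. It stood at 6.87, 6.85 and 6.81 in IUGR F1, at 6.79, 6.95 and 6.72 in ON F1, at 6.74, 6.82 and 6.71 in ON F2 and at 6.58, 6.64 and 6.51 in control pools. These 3 groups lay above control without overlap, by 0.27 ± 0.11 (limma adjusted p = 0.526), 0.24 ± 0.11 (adjusted p = 0.337) and 0.18 ± 0.11 (adjusted p = 0.443). IUGR F2 pools stood at 6.79, 6.30 and 6.70, across the control range, and below IUGR F1 without overlap by -0.25 ± 0.11 (limma adjusted p = 0.406).

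The Phgdh probe sets differed among themselves. Of the 4 annotated to Phgdh alone, the brightest gave 0.27 for IUGR F1 against control, and the others gave 0.016, 0.087 and -0.17. The brightest and second brightest correlated at r = -0.10 and rho = -0.15 (adjusted permutation p = 0.812 and 0.721; r = -0.16 without the 2 farthest pools). A further 2 probe sets are annotated to Phgdh together with another symbol and were not used, and all 4 are of a type that can cross-hybridise.

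Psat1, the aminotransferase of the pathway, was near the floor of the array, at a mean of 3.59. Its group means were 3.60 ± 0.18 for IUGR F1, 3.76 ± 0.24 for ON F1, 3.45 ± 0.13 for IUGR F2, 3.59 ± 0.05 for ON F2 and 3.56 ± 0.02 for control (SD, n = 3 pools each), and all comparisons overlapped. A lower level than in other genes cannot be read from this, since probe sets differ in brightness.

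Psph, the phosphatase of the last step, had negative differences from control in all 4 groups. They were -0.33 ± 0.18 in IUGR F1, -0.31 ± 0.18 for ON F1, -0.36 ± 0.18 for IUGR F2 and -0.25 ± 0.18 for ON F2, with limma adjusted p-values of 0.454 to 0.720. The pools read 6.89, 7.11 and 6.85 in IUGR F2 and 7.34, 7.16 and 7.44 in control. IUGR F2 alone lay below control without overlap, while in ON F2 the pools spread from 6.80 to 7.43, the highest being pool 13 with its pancreas markers. In both first-generation groups Phgdh was positive and Psph negative against control, and neither was called.

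Over the 15 pools the 36 pairs of the 9 genes showed no common direction. Pearson's r was positive in 20 pairs and negative in 16, with a median of 0.025 and a range of -0.71 to 0.72. The 2 pairs with an adjusted permutation p below 0.05 were Phgdh with Adm2 and Atf4 with Asns, at 0.0497 each. Phgdh and Adm2 had r = 0.72 and rho = 0.76 (adjusted permutation p for rho = 0.0486), r = 0.68 without the 2 farthest pools, and r = 0.45 after the group means were removed (adjusted permutation p = 0.397). Atf4 and Asns were opposed, with r = -0.71 and rho = -0.61 (adjusted permutation p for rho = 0.145), r = -0.54 without the 2 farthest pools, and r = -0.72 within groups (adjusted permutation p = 0.0196). This opposition was read at the brightest Atf4 probe set. No pair passed without control pool 1, IUGR F1 pool 4 or 6, ON F1 pool 7 or 9, IUGR F2 pool 12 or any ON F2 pool, and 4 pairs passed without control pool 2. Psph with Psat1, a dim gene, had r = 0.50 (adjusted permutation p = 0.337), and r = 0.79 within groups (adjusted permutation p = 0.0140). The within-group permutations shuffled all 15 pools without regard to the group means removed, so their p-values may be too small.

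**Figure D4:**
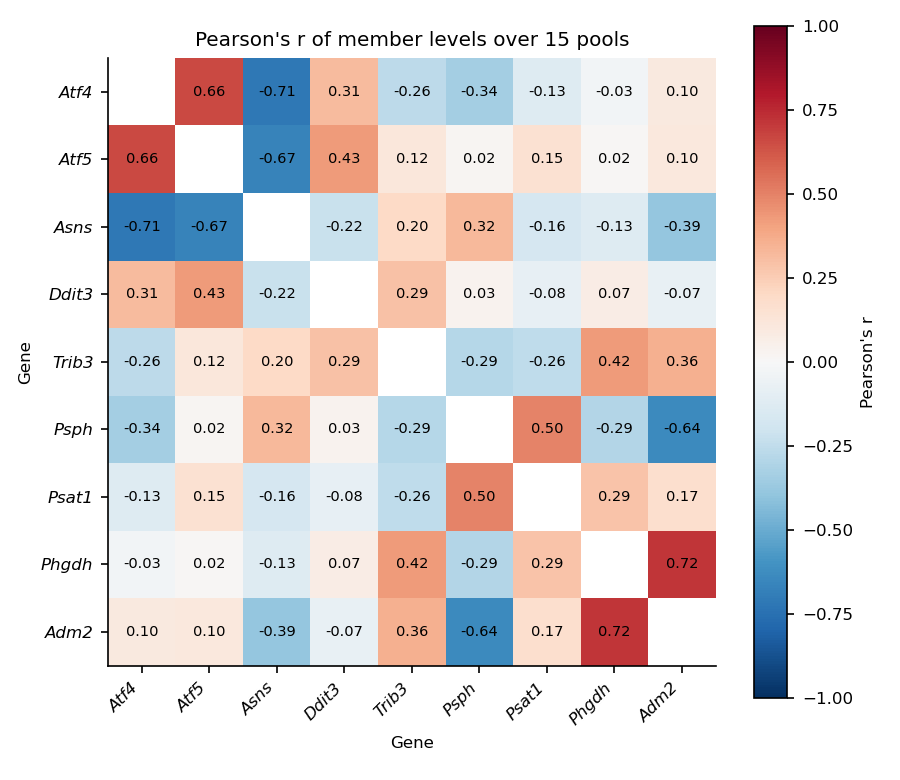
Pearson's r between the levels of each pair of the 9 genes over the 15 pools, with blue for negative and red for positive values. The extremes are Phgdh with Adm2 (0.72) and Atf4 with Asns (-0.71), and 20 of 36 pairs are positive.

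None of the genes whose levels followed Asns most closely was on the list of ATF4 targets used here. Among 10362 genes with a mean of at least 5, the highest Pearson's r over 15 pools was that of Cd207, the langerin gene of dendritic cells, at 0.900. It was followed by P2rx4, Lima1, Amot, Plec, Cxcl14, Acp5, Mcl1, Cebpb and Mapk1ip1l, down to 0.829. Cebpb, which encodes a C/EBP partner of ATF4, had r = 0.836. Its levels were 10.95, 10.65 and 10.31 in ON F2, 10.00, 10.32 and 10.36 in ON F1, and 10.25, 10.55 and 10.75 in control pools, so that ON F2 overlapped both. Without ON F2 pool 13 the leading genes were Trim60, Fam189a2, Cd207, Slc35c2, Pnmt, Acp5, Telo2, Arhgap4, Adcy5 and P2rx4 (r from 0.877 to 0.827), and 3 genes, Cd207, P2rx4 and Acp5, were among the first 10 both times. These pools share their groups, so the values describe likeness only.

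The other genes of the pathway were taken from lists of known members. Of 20 other ATF4 targets measured, none was called against control by limma. In IUGR F1, ON F1, IUGR F2 and ON F2, 1, 3, 3 and 6 were at an unadjusted p below 0.05 (all genes 8.43%, 14%, 7.05% and 15.1%). The median difference was -0.036, -0.048, -0.067 and -0.058 in that order, beside 0.0071, 0.019, -0.010 and -0.0026 over all genes. Fgf21, a liver hormone induced by ATF4 and by fasting, had the smallest p. It read 4.55, 5.35 and 5.32 in ON F2, against 6.23, 6.24 and 5.52 in control pools, a difference of -0.92 ± 0.28 without overlap (limma adjusted p = 0.166). Fgf21 carries the element too, and its difference has the opposite sign to that of Asns in ON F2. In IUGR F1, ON F1 and IUGR F2 it has the same sign as Asns (-0.20, -0.17 and -0.61 for Fgf21). The difference of Chac1 has the sign of Asns in all 4 groups (-0.25 in ON F1 and 0.11 in ON F2), with no call. Of the 10 listed genes with the element other than Asns, 8 had a negative difference from control in ON F2 and 2 a positive one, from -0.92 to 0.34 (49.3% of all genes were positive). The 8 negative ones include 5 aminoacyl-tRNA synthetases, which are counted again with their own list below. In IUGR F1, ON F1 and IUGR F2, where Asns was negative too, 7, 7 and 9 of the 10 were negative. Of all genes 52.3%, 55.0% and 46.6% were positive there.

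The cytosolic aminoacyl-tRNA synthetases, which charge tRNAs with amino acids and are among the best known ATF4 targets, had negative differences in ON F2. All 19 of 19 measured lay below zero there, at a median of -0.15 beside -0.0026 for all genes. By limma 0 were called, with 6 at an unadjusted p below 0.05 (all genes 15.1%). Wars, for tryptophan, read 6.88, 6.68 and 6.56 in ON F2 and 7.11, 7.02 and 7.10 in control pools, a difference of -0.37 ± 0.09 (limma adjusted p = 0.133). Rars, for arginine, differed by -0.31 ± 0.09 (limma adjusted p = 0.160). In ON F1 15 of 19 were negative (median -0.12), in IUGR F1 14 (median -0.064) and in IUGR F2 14 (median -0.037). Over all genes 49.3% of differences were positive in ON F2, 55.0% in ON F1, 52.3% in IUGR F1 and 46.6% in IUGR F2. In ON F2 livers Asns was positive against control while all 19 measured synthetases were negative. The count of negative ones was 14 of 19 without control pool 3, 18 without ON F2 pool 14, 17 without ON F2 pool 15 and 16 at the mean of all probe sets of a gene.

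The list of genes that switch the response on and off holds kinases, phosphatase subunits, Eif2b genes, Gcn1 and Impact. Over all genes 49.3% of differences were positive in ON F2, 55.0% in ON F1, 52.3% in IUGR F1 and 46.6% in IUGR F2. The list gave 13 of 14 negative differences in ON F2 and 13 of 14 in ON F1, at medians of -0.20 and -0.13, and 11 and 10 in IUGR F1 and IUGR F2. The IUGR F1 count was 7 of 14 without control pool 1. Against control 0 were called by limma, with 1, 3, 0 and 7 at an unadjusted p below 0.05 in IUGR F1, ON F1, IUGR F2 and ON F2 (all genes 8.43%, 14%, 7.05% and 15.1%). Eif2ak3, which encodes PERK, read 7.35, 7.00 and 7.12 in ON F2 and 7.61, 7.57 and 7.54 in control pools, a difference of -0.42 ± 0.11 (limma adjusted p = 0.134). Impact, which encodes an inhibitor of GCN2 activation, rose in ON F2 against ON F1. Its levels were 7.25, 7.16 and 7.28 in ON F2, 6.81, 7.03 and 6.76 in ON F1 and 7.15, 7.29 and 7.32 in control pools, so that ON F2 lay within the control range and ON F1 below both. The difference was 0.36 ± 0.08 (limma adjusted p = 0.0470), and the call held with 1 pool left out in 2 of 15 cases and in 3 of 9 other settings. At the mean of all its probe sets Impact differed by -0.0070 (limma adjusted p = 0.971).

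The same comparison called 2 more genes of these lists. Eif4ebp1, an ATF4 target that encodes a repressor of cap-dependent translation, was higher at 9.32, 9.27 and 9.36 in ON F2 than at 8.87, 9.10 and 8.90 in ON F1, against 9.08, 9.15 and 9.28 in control. The difference was 0.36 ± 0.08 (limma adjusted p = 0.0475). Srr, serine racemase, was lower at 8.99, 9.10 and 9.22 in ON F2 than at 9.47, 9.49 and 9.47 in ON F1, by -0.37 ± 0.09 (limma adjusted p = 0.0474). With 1 pool left out the Eif4ebp1 call held in 3 of 15 cases and the Srr call in 4, and in other settings they held in 3 and 2 of 9. At the mean of all its probe sets the Srr difference was -0.017 (limma adjusted p = 0.938).

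A gene of fasting and a gene of the daily clock were called in the same comparison. Pck1, the rate-limiting enzyme of gluconeogenesis, read 12.08, 11.63 and 10.66 in ON F2, 9.17, 9.88 and 10.39 in ON F1 and 10.92, 11.11 and 11.67 in control pools. It was higher in ON F2 than in ON F1 by 1.64 ± 0.38 (limma adjusted p = 0.0470, held in 3 of 15 cases with 1 pool left out and in 1 of 9 other settings). Of 12 fasting and feeding genes measured, 1 was called and 5 had positive differences (all genes 43.4%), with a median of -0.29. An unadjusted p below 0.05 was met by 7 of the 12 (all genes 19.3%). Npas2, a clock activator, was lower by -2.19 ± 0.45 (limma adjusted p = 0.0338), and that call held in 11 of 15 cases with 1 pool left out and in 3 of 9 other settings. With Dbp as a covariate the differences were 1.12 for Pck1 (limma adjusted p = 0.389) and -1.23 for Npas2 (adjusted p = 0.251), neither called. Of 12 clock genes 8 had positive differences (all genes 43.4%), with a median of 0.54 beside -0.029 over all genes. Of the same 12, 9 had an unadjusted p below 0.05 (all genes 19.3%). The part of feeding state and sampling hour in the Asns difference was not tested beyond the Dbp covariate.

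Amino acid transporters of the response gave 0 calls against control by limma among 12 measured, with 2, 6, 2 and 1 at an unadjusted p below 0.05 in IUGR F1, ON F1, IUGR F2 and ON F2. For these and the enzymes below, the shares of all genes were 8.43%, 14%, 7.05% and 15.1% in that order. Slc38a2, which encodes the SNAT2 carrier that adapts to amino acid supply, read 8.83, 8.46 and 9.01 in ON F1 and 9.26, 9.30 and 9.37 in control, a difference of -0.54 ± 0.14 (limma adjusted p = 0.143). In ON F2 it was at 9.47, 9.44 and 9.08, across the control range. Slc38a7 was lower than control in all IUGR F2 pools by -0.37 ± 0.08 (limma adjusted p = 0.383). The other enzymes of serine, glycine and folate metabolism (22 measured) gave medians of 0.0099, -0.042, -0.055 and -0.044 in the 4 groups and 0 calls against control, with 3, 7, 3 and 4 at an unadjusted p below 0.05. Mthfd1l, the mitochondrial enzyme that releases formate, read 5.11, 5.48 and 5.21 in ON F1 and 4.81, 4.89 and 4.82 in control, a difference of 0.43 ± 0.10 without overlap (limma adjusted p = 0.112).

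The ER chaperones, which follow the other arms of the unfolded protein response, had negative differences from control in 18 of 20 genes for IUGR F1, 18 for ON F1, 14 for IUGR F2 and 17 for ON F2. The medians were -0.12, -0.16, -0.076 and -0.23, and 0 were called by limma, with 1, 1, 2 and 8 at an unadjusted p below 0.05 (all genes 8.43%, 14%, 7.05% and 15.1%). The count of negative differences in IUGR F1 was 6 of 20 without pool 6. Dnajb9, a co-chaperone of BiP, read 10.44, 10.54 and 10.06 in ON F2 and 10.92, 10.94 and 10.89 in control pools, a difference of -0.57 ± 0.14 (limma adjusted p = 0.130). Hsp90b1, the chaperone GRP94, differed by -0.35 ± 0.11 in ON F1 (limma adjusted p = 0.206).

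Partner factors of the basic leucine zipper class (11 measured) gave medians of -0.24, -0.020, -0.096 and 0.038 in IUGR F1, ON F1, IUGR F2 and ON F2, and 0 calls against control by limma, with 1, 0, 3 and 4 at an unadjusted p below 0.05. For these and the urea cycle list below, the shares of all genes were 8.43%, 14%, 7.05% and 15.1% in that order. Nfe2l1, which drives proteasome genes, differed by -0.26 ± 0.08 in ON F2 (limma adjusted p = 0.187), and Jdp2, a repressor of the AP-1 class, by 0.26 ± 0.09 in IUGR F2 (adjusted p = 0.647). Genes of the urea cycle and amino acid breakdown (16 measured) gave medians of 0.0076, -0.065, -0.019 and 0.017 and 0 calls, with 1, 2, 1 and 2 at an unadjusted p below 0.05. Arg1, the last enzyme of the cycle, differed by -0.29 ± 0.09 in ON F1 (limma adjusted p = 0.205), and Hal, which breaks down histidine, by 0.27 ± 0.10 (adjusted p = 0.265).

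**Figure D5:**
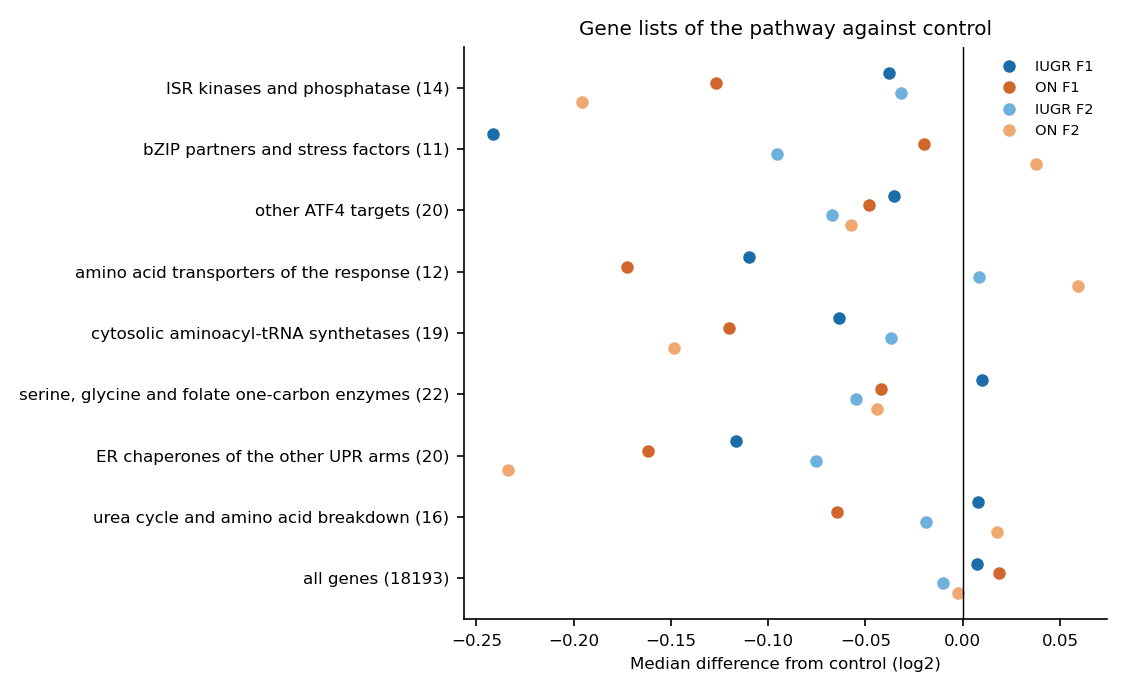
Median difference from control on the log2 scale for 8 gene lists of the pathway and for all 18193 genes, with the number of genes measured in brackets; each point is a group. In ON F2 the ER chaperone list (-0.23) and the synthetases (-0.15) lie below all genes (-0.0026). So does the list of kinases and phosphatases of the response with related genes (-0.20).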

How the data were processed

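Per the submitters' processing notes, the authors made the deposited values with RMA, which corrects background, quantile-normalises the arrays and summarises each probe set. The deposited values are log2 levels made by the authors in that way, as read from array medians of 4.60 to 4.68, and the sources used here do not state a version of RMA. It removes shifts shared by most genes and compresses dim probe sets, and 7830 of 18193 genes had a mean below 5. Of 45101 probe sets, 64 controls were left out, 34945 carried 1 symbol, 932 several and 9160 none.

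Each gene was read at its probe set of highest mean. In R 4.3.3, limma 3.58.1 fitted 5 group means to all 15 arrays with eBayes, two-sided, and Benjamini-Hochberg adjustment over all genes. There were 10 residual and 4.69 prior degrees of freedom, and the median SE of a difference was 0.104. The number of arrays limits the precision. Correlations used 100000 permutations. The code was tested on simulated data. Alternatives were the mean of probe sets, a filter on dim genes, trend and robust moderation, only the groups compared, array weights, 3 covariates, each pool left out, and, chosen after seeing the data, pools 5 and 13 left out together and every probe set tested by itself.

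The genes, the lists and the tests were chosen with earlier results of these data known. All 9 genes are named in every comparison. From each pathway list the text names called genes, at most 4 per comparison, and from the others up to 2 with the smallest p against control. A pool is described as apart where it lay over 1 log2 unit from the mean of the others of its group, with no test. Array pairs correlated at 0.983 to 0.995, and 0 pairs were identical. The 8 hepatocyte markers were all measured, with summed levels of 89976 to 95166 in all pools. Promoter sequences and coordinates are from RefSeq, and no protein sequence was used here.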

Additional observations from a re-analysis of the deposited data

Results flagged for a closer look

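Asns stood on opposite sides of control in the sons of the 2 kinds of treated males. All 3 ON F2 pools lay above and all 3 IUGR F2 pools below the control pools, with differences from control of 0.89 and -0.43. Neither difference was called by limma (adjusted p = 0.239 and 0.840). The difference between ON F2 and IUGR F2 was tested after this was seen. It was 1.32 ± 0.34 and not called (limma adjusted p = 0.241), and that comparison called 1 of 18193 genes. With 3 pools in each group, no outlier test was run on single pools.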

How the results depend on the processing

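The call of Asns in ON F2 against ON F1 was lost with Dbp or the pancreas markers as a covariate, leaving 0 genes called in place of 1, and with 1 pool left out between 0 and 1 were called. The F test called 0 of the 9 genes, 1 with pools 5 and 13 left out together, and between 0 and 1 with 1 pool left out (1 without IUGR F1 pool 5). Correlated pairs numbered 2, but 1 by Spearman's rho and 0 to 4 with 1 pool left out. Counts of 0 called in the other comparisons held in all settings run, though the filter at a mean of 5 leaves out Psat1 and Adm2.

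Of 704 repeats of the 72 member differences, 36 changed sign, all of them differences that were not called, and the cause was not tested. Settings that kept the group means, such as the dim gene filter and the trend and robust moderation, could not change a sign. With the mean of all probe sets, the signs turned for Atf4 (-0.040 for ON F1, 0.12 for IUGR F2 and 0.028 for ON F2 against control, 0.068 in ON F2 against ON F1), Ddit3 (-0.25 in ON F1 against control, 0.032 in ON F2 against ON F1), Psat1 (-0.031 in IUGR F1 and -0.013 in ON F2 against control, -0.0069 for the interaction) and Phgdh (-0.024 in IUGR F2 against control), and Impact in ON F2 against ON F1 was -0.0070. With array weights they turned for Atf5 (0.030 in IUGR F1 against control, -0.038 in IUGR F2 against IUGR F1) and Ddit3 (-0.020 in IUGR F2 against control). With the Dbp covariate they turned for Atf5 (-0.076 in IUGR F2 against IUGR F1), Trib3 (-0.15 in ON F2 against ON F1, 0.15 for the interaction) and Psat1 (-0.082 for the interaction). With the pancreas covariate they turned for Trib3 (-0.036 in ON F2 against ON F1) and Psph (-0.14 in ON F2 against ON F1, -0.091 in ON F2 against IUGR F2, 0.12 for the interaction). With the ratio of 3' to 5' actin probe sets as covariate, they turned for Ddit3 (-0.16 in ON F1 and -0.17 in IUGR F2 against control), Trib3 (-0.043 in ON F1 and -0.090 in IUGR F2 against control), Phgdh (-0.056 in IUGR F2 against control) and Psph (0.061 in IUGR F2 against IUGR F1, 0.037 for the interaction). With pools 5 and 13 left out together they turned for Atf5 (0.086 in IUGR F1 against control, -0.13 in IUGR F2 against IUGR F1), Psat1 (-0.012 in IUGR F1 against control), Trib3 (-0.0075 in ON F2 against ON F1) and Psph (0.068 in IUGR F2 against IUGR F1, -0.13 in ON F2 against ON F1, -0.079 in ON F2 against IUGR F2, 0.20 for the interaction).

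With 1 pool left out, ranges that crossed 0 were, against control, -0.20 to 0.086 for Atf5 and -0.012 to 0.15 for Psat1 in IUGR F1, -0.17 to 0.44 for Ddit3 and -0.0077 to 0.55 for Trib3 in ON F1, and in IUGR F2 -0.071 to 0.037 for Atf4, -0.19 to 0.036 for Atf5, -0.12 to 0.14 for Ddit3, -0.042 to 0.25 for Trib3 and -0.080 to 0.17 for Phgdh. In IUGR F2 against IUGR F1 they were -0.13 to 0.12 for Atf5, -0.14 to 0.76 for Asns, -0.28 to 0.043 for Trib3 and -0.16 to 0.068 for Psph. In ON F2 against ON F1 they were -0.21 to 0.34 for Trib3, -0.13 to 0.18 for Psph and -0.11 to 0.0035 for Phgdh, and in ON F2 against IUGR F2 -0.079 to 0.24 for Psph and -0.028 to 0.13 for Adm2. For the interaction they were -0.44 to 0.12 for Trib3, -0.21 to 0.10 for Psph and -0.094 to 0.15 for Psat1. No paired analysis was possible because the pool numbers 1 to 15 are not shared between groups. Each group has 3 pools, so that small differences of dim genes such as Psat1 and Adm2 cannot be resolved.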
